A study of Mus musculus with 6 samples.

Results

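Spectrins, ankyrins and the proteins of the band 4.1 family form the skeleton under the cell membrane, and 8 of their genes were followed here in uninjured mouse sciatic nerve: Sptan1, Sptbn1, Ank1, Ank2, Ank3, Epb41, Epb41l2 and Epb41l3. Members were picked by gene symbol, and the rule uses no measured value. They are 8 of the 54309 genes quantified and hold 178 of the 140789 transcripts, and all 8 were among the 16310 genes that passed a filter on low counts. Levels are given as TPM, the number of transcripts a gene supplies to a fixed total in each sample, scaled for transcript length so that genes can be compared. The level of a gene is the sum over its transcripts, and the share of a transcript is its part of that sum.

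Left sciatic nerve, labelled as whole in the sample records though the study's methods speak of its proximal segment, was taken from female and male C57BL6/J mice (strain given as C57BL/6 in the sample labels) aged 6 to 8 weeks, 24 h after a sham operation in which the nerve was exposed at mid-thigh and not cut. All 6 samples carry this same treatment, so the only contrast is the sex of the mice. Each sample was poly-A RNA from a pool of 2 mice, with 6 mice and 3 pools per sex. The pools are called F1, F2 and F3 for females and M1, M2 and M3 for males. Axotomized nerves were not analysed here.

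Spectrin is a long, flexible rod made of alpha and beta chains that cross-links short actin filaments into a lattice under the membrane. Ankyrins bind beta spectrin on one side and channels, transporters and adhesion molecules on the other, and proteins of the 4.1 family strengthen the contact of spectrin with actin and tie it to a further set of membrane proteins. In nerve this lattice runs along the axon, anchors sodium channels at the nodes of Ranvier and adhesion molecules at the paranodes beside them, and also lies under the membrane of the Schwann cell that makes the myelin.

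Depth was 55949876 to 78473057 estimated read pairs per pool. The tissue label was met by its markers: 8 genes of myelinating Schwann cells summed to 33418 to 42647 TPM. A list of 9 neuronal genes summed to 40.8 to 49.7 TPM. Of these, 6 passed the filter on low counts, Snap25 among them. Those that did not, Rbfox3, Syt1 and Elavl4, were at 0.0106 to 0.153 TPM. Pools differed in tissue that is not nerve. In F2, the summed level of 12 genes of skeletal muscle was 3730 TPM, and the other 5 pools held 18.8 to 235 TPM. In F3, the sum of 9 erythroid genes was 30910 TPM, while elsewhere it was 5080 to 14217 TPM, and TPM values share a fixed total.

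The 8 genes spanned a wide range of levels. Epb41l2 was highest, at 314 ± 18.6 TPM (SD, n = 6 pools), followed by Sptbn1, Sptan1, Ank3, Ank2, Epb41l3 and Epb41, and Ank1 was lowest, at 1.27 ± 1.42 TPM, or 0.693 ± 0.193 TPM (SD, n = 5 pools) without F2. Together they made 797 to 899 TPM of each pool. Among the genes kept, their median percentile by mean TPM was 82.4, with Epb41l2, Sptbn1 and Sptan1 above the 90th percentile of 93.2 TPM and Ank1 below the 25th percentile of 3.83 TPM. Neighbours in this order did not overlap over the 6 pools except Ank3 with Ank2 and Epb41l3 with Epb41. Ank3 was above Ank2 in every pool all the same, by 1.04 to 1.48 times, whereas Epb41l3 over Epb41 ran from 0.867 to 1.82 times.

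**Figure D1:**
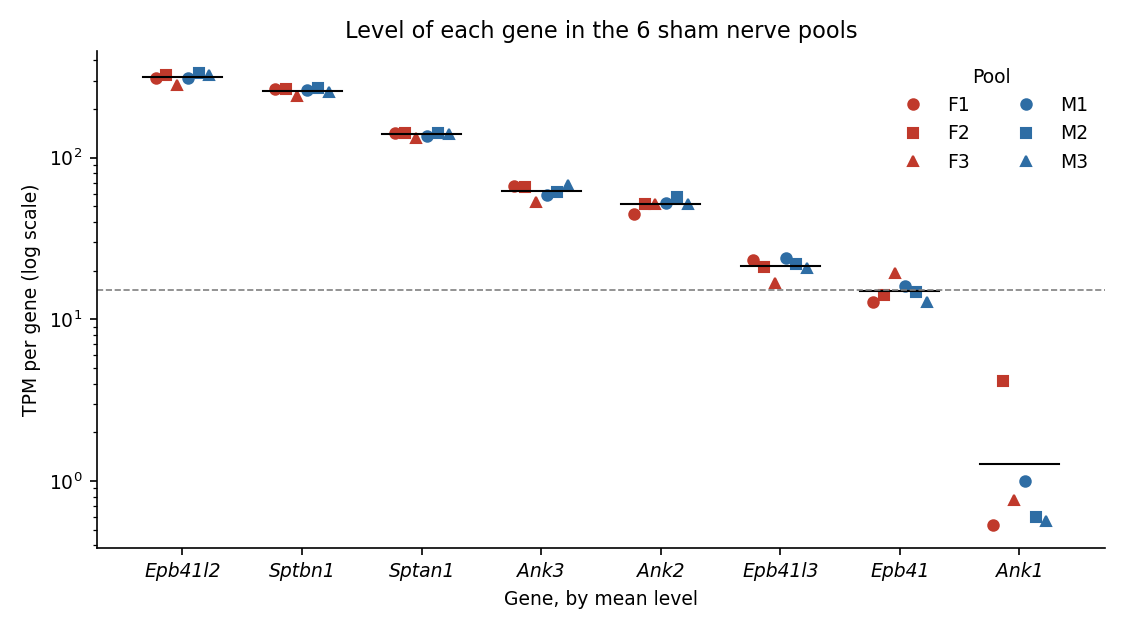
Level of each of the 8 genes in the 6 sham nerve pools, as TPM per gene on a log axis, with females in red, males in blue, the mean over pools as a black bar and the median of all genes kept (15.1 TPM) as a dashed line. Red and blue points overlap for every gene, and the F2 point of Ank1 stands apart at 4.15 TPM.

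Sptan1 encodes the alpha-II chain, the alpha spectrin of nearly all cells but the red cell. It stood at 141.8, 142.6 and 132.7 TPM in F1 to F3 and at 135.7, 143.1 and 140.4 TPM in M1 to M3, the narrowest spread of the 8 genes with a coefficient of variation of 3.02%. Sptbn1 encodes the beta-II chain that pairs with it. It stood at 265, 267 and 241 TPM in F1 to F3 and at 261, 268 and 255 TPM in M1 to M3. Transcripts of the beta chain therefore outnumbered those of the alpha chain in every pool, and their ratio was nearly constant at 1.86 ± 0.0406 (SD, n = 6), from 1.82 to 1.93.

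Sptan1 lies on chromosome 2 (GRCm39, 29855328 to 29921463, plus strand), and its 3 leading transcripts differ by 2 short coding exons. The 60-base and 15-base exons are printed below in capitals, between 18 bases of the neighbouring exons in lower case, because they decide which alpha-II chain is made. Both keep the reading frame, adding 20 and 5 codons. The first is chr2:29891112-29891171 and the second chr2:29904170-29904184, both on the plus strand of GRCm39.
Sptan1 60-base exon: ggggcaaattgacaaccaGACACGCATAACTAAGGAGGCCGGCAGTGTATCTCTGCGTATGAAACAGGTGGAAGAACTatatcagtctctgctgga
Sptan1 15-base exon: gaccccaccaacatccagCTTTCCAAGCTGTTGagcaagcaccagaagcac

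Sptan1-204, which has the 15-base but not the 60-base exon, held 32.0 ± 4.58% (SD, n = 6) of the gene's TPM. Sptan1-201, with neither, held 26.7 ± 3.03%, and Sptan1-203, with both, held 21.4 ± 2.46%. Summed over all transcripts that span each place, the 60-base exon was included in 28.7, 29.3 and 24.8% of TPM in F1 to F3 and in 27.7, 26.7 and 22.0% in M1 to M3. Inclusion of the 15-base exon was 63.2, 65.9 and 67.5% in F1 to F3 and 66.7, 65.0 and 73.3% in M1 to M3. Thus the 15-base exon was in most of the alpha-II transcripts of every pool and the 60-base exon in a minority, with the sexes overlapping for both, and M3 held the lowest value for the first exon and the highest for the second.

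Sptbn1 lies on chromosome 11 (GRCm39, 30049394 to 30218191, minus strand) and has 2 coding ends. Sptbn1-202 and Sptbn1-201 start from different first exons and both encode the long chain of 2363 codons, whose end carries the pleckstrin homology domain that binds membrane phospholipids. Sptbn1-203 stops earlier, at 2154 codons. It also starts elsewhere, at base 30148257 against 30169772 for Sptbn1-202 and 30218191 for Sptbn1-201. The sequences show where their ends part, after the same 24 bases in lower case. Capitals give the 84 coding bases that end the short form and the first 84 of the next exon of the long form. On the minus strand of GRCm39 the short end is chr11:30059005-30059112 with those 24 bases, and the whole next exon of the long form is chr11:30054436-30054674.
Sptbn1-203 coding end: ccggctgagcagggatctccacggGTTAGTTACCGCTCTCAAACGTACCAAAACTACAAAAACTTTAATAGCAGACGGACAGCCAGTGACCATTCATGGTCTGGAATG
Sptbn1-202 next exon: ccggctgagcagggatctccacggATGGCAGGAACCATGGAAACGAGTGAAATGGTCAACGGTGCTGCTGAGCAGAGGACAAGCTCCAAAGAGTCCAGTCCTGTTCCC

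The short form was at 75.9, 71.1 and 55.4 TPM in F1 to F3 and at 65.1, 69.6 and 63.7 TPM in M1 to M3. The long forms together were at 135.2, 139.0 and 127.4 TPM in F1 to F3 and at 138.1, 140.3 and 135.9 TPM in M1 to M3. The short form was thus 32.9 ± 1.93% (SD, n = 6) of these 3 transcripts, between 30.3 and 35.9% in every pool. Between the long forms, Sptbn1-202 was above Sptbn1-201 in all 6 pools, at 79.9 ± 8.72 against 56.1 ± 10.98 TPM. A transcript annotated as retaining an intron, Sptbn1-206, made up a further 13.1 ± 0.920% of the gene.

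Ank3 encodes ankyrin-G, which gathers sodium channels at nodes of Ranvier and axon initial segments. It lies on chromosome 10 (GRCm39, 69234603 to 69863268, plus strand) and stood at 66.5, 65.5 and 53.6 TPM in F1 to F3 and at 59.1, 61.6 and 68.0 TPM in M1 to M3. Of its 47 transcripts, Ank3-231 led with 28.0 ± 1.17% (SD, n = 6) of TPM and Ank3-247 followed with 20.3 ± 1.26%, and these start from different first exons. A 63-base exon was included in 83.7 ± 2.99% of TPM and a 54-base exon in 47.1 ± 3.44%. Ank3-231 holds the 54-base exon and Ank3-247 skips it. As quantified, Ank3-231 had the 9963 bases of its exon model, and its rivals were shorter than theirs. Ank3-247 had 5500 bases against 8981, Ank3-210 6375 against 9187, Ank3-207 3751 against 6546 and Ank3-230 3557 against 6369. The part of these unequal lengths in the shares and inclusion values was not tested. Ank3-207 and Ank3-230, which start far downstream and encode 898 and 881 codons, made up 13.1 to 16.99% of the gene.

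Ank2 encodes ankyrin-B, known from the axon shaft, the paranode and the heart. It lies on chromosome 3 (GRCm39, 126715261 to 127292999, minus strand) and stood at 44.8, 51.7 and 51.4 TPM in F1 to F3 and at 52.8, 56.8 and 51.6 TPM in M1 to M3. Ank2-201, of 1050 codons, was its leading transcript at 17.8 ± 1.41 TPM (SD, n = 6), or 34.8 ± 4.27% of the gene. The second, Ank2-216, was listed at 0 in F1 and F2 and at 13.4 TPM in F3 and 10.9, 12.2 and 11.4 TPM in M1 to M3. It is a single exon of 2359 bases without a coding sequence, and 2358 of these bases lie inside the last exon of Ank2-201, so that reads from there can be assigned to either. Such switches between 0 and a clear level were seen in 3 of the 51 transcripts of these genes with a mean of at least 1 TPM and in 4.25% of all 39611 such transcripts.

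Ank2-220 and Ank2-227 held a further 10.8 ± 1.21% and 10.5 ± 2.52% (SD, n = 6) of Ank2. Ank2-227 is a fragment of 365 bases and the only transcript with a 36-base coding exon (GRCm39, chr3:126764652-126764687, minus strand). Inclusion of this exon was 17.8, 22.4 and 18.5% of TPM in F1 to F3 and 16.8, 16.9 and 14.9% in M1 to M3. The sexes did not overlap for it, alone among the alternative exons measured in these genes, and the difference in inclusion was not tested. No such share was computed over the exons of all genes. Of all transcripts tested, 10.1% did not overlap. The inclusion values and the share of Ank2-227 rest on 29.8 to 52.3 estimated reads per pool, out of 5656 to 8560 for the whole gene. For Ank2-227 itself the edgeR log2 fold change was 0.33 ± 0.27 (SE), with adjusted p = 0.997.

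Ankyrin-B and ankyrin-G are also made in neurons as giant forms, in which a very long extra exon extends the protein along the axon. Only transcripts with such an exon of at least 5000 bases were counted here. This leaves out Ank3-233 and Ank3-225, whose longest exons have 2550 and 2541 bases, at means of 0.196 and 0.294 TPM. The transcripts of Ank2 with its exon of 6198 bases (Ank2-208 and Ank2-207) summed to 0.473 to 0.606 TPM, a share of 1.03% on average. The one Ank3 transcript with its exon of 7674 bases, Ank3-244, was at 0.258 to 0.449 TPM, a share of 0.563%. These low levels rested on 287 to 482 and on 111 to 183 estimated reads per pool. They stood beside the low neuronal list above, and since the nerve holds axons but not the cell bodies of its neurons, fewer cells of a type and less RNA per cell cannot be told apart here.

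Ank1 encodes ankyrin-R, first described in the red cell, and also a small muscle form that anchors the sarcoplasmic reticulum to the contractile fibre. It lies on chromosome 8 (GRCm39, 23464860 to 23640513, plus strand). The gene stood at 0.533, 4.15 and 0.769 TPM in F1 to F3 and at 0.998, 0.604 and 0.563 TPM in M1 to M3, from 170, 440 and 163 and from 230, 167 and 145 estimated reads. F2 stood above the other 5 pools, which lay between 0.533 and 0.998 TPM.

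The small form starts inside the gene. Ank1-208 has 5 exons and 155 codons against the 44 exons and 1878 codons of Ank1-207. The bases around its start are those of chr8:23628796-23629095 of GRCm39 on the plus strand (250 bases before the start and 50 from it). They are printed because transcripts that start here or further downstream made up most of the Ank1 level in F2. Capitals mark the E-box letters CANNTG, in which N is any base and which read as the same pattern on both strands. Muscle regulators of the MyoD family are among the proteins that recognise E-boxes.
Ank1-208 start window: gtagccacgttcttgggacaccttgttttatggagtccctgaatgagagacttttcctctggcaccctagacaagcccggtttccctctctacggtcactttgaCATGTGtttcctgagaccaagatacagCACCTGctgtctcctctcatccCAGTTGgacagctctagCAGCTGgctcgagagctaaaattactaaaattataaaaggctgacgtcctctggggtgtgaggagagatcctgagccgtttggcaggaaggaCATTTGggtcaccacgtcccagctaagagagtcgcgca

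The window holds 5 matches, none overlapping, whose first bases lie at -146, -119, -97, -80 and 12 from the start of Ank1-208. At least 1 match was in 72.3% and at least 5 in 2.10% of 32851 RefSeq gene start windows of the same 300 bases (GRCm38.p6). A match is a description of these letters and shows no binding.

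The 3 protein-coding transcripts that start at this place or further downstream are Ank1-208, Ank1-201 and Ank1-217. As annotated, Ank1-201 and Ank1-217 start at bases 23629121 and 23629293, past the printed window. Together the 3 summed to 3.49 TPM in F2 and to 0, 0.389, 0.293, 0.166 and 0.166 TPM in F1, F3, M1, M2 and M3. They made up 84.7% of the protein-coding Ank1 level in F2. The 10 from upstream starts, which include the full-length ankyrin-R forms, lay between 0.326 and 0.633 TPM, also highest in F2, and Ank1-207 was at 0.163 to 0.226 TPM in every pool. The F2 value of Ank1 was therefore mostly the small form. Skeletal muscle genes were highest in the same pool, at 3730 TPM, among them Acta1, the actin of skeletal muscle, at 739 TPM against 2.11 TPM where it was lowest, and their part in the Ank1 value was not tested.

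**Figure D2:**
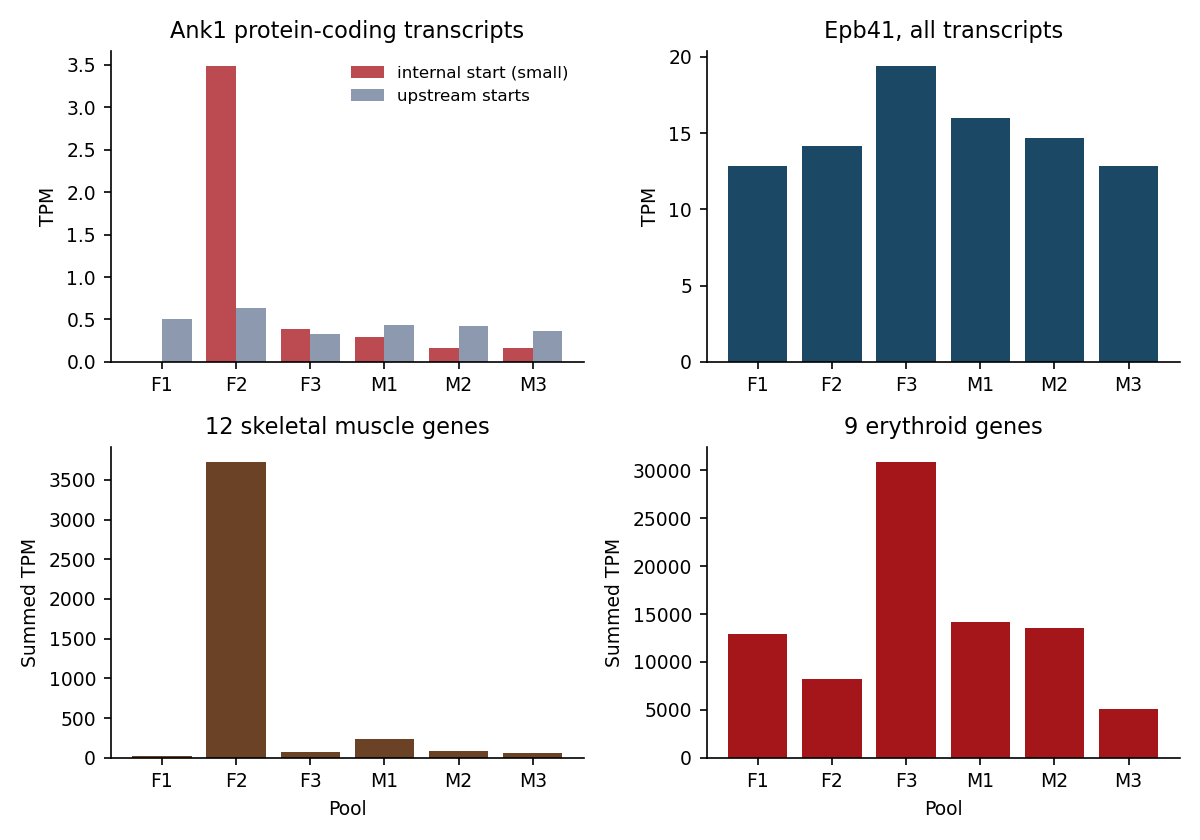
Left, TPM of protein-coding Ank1 transcripts, above the summed TPM of 12 skeletal muscle genes. Red bars are transcripts that start at the internal start or further downstream, and grey bars those from upstream starts. Right, TPM of Epb41 above the summed TPM of 9 erythroid genes, 1 bar per pool throughout. F2 has the highest bar for small Ank1 (3.49 TPM) and for muscle, and F3 the highest for Epb41 (19.4 TPM) and for erythroid genes.

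Epb41l2 encodes protein 4.1G, found in Schwann cells at the contacts between the cell's own membranes. It lies on chromosome 10 (GRCm39, 25235688 to 25399473, plus strand) and stood at 310.2, 326 and 280.5 TPM in F1 to F3 and at 311, 332 and 324 TPM in M1 to M3. It was 14.4 to 25.3 times as high as Epb41 and 12.96 to 16.7 times as high as Epb41l3. Its leading transcript, Epb41l2-204 with 794 codons, held 42.9 ± 2.48% (SD, n = 6), and Epb41l2-207 and Epb41l2-201, with 918 and 988 codons, held 27.2 ± 1.97% and 11.1 ± 1.95%.

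Epb41 encodes protein 4.1R, the founding member, which locks spectrin to actin in the red cell and is made in many other cells. It lies on chromosome 4 (GRCm39, 131650724 to 131802632, minus strand) and stood at 12.8, 14.2 and 19.4 TPM in F1 to F3 and at 15.98, 14.7 and 12.8 TPM in M1 to M3. F3 was highest and F1 and M3 lowest. The erythroid sum was also highest in F3 and was lowest in M3, though F1, at 12961 TPM, stood above F2 at 8176 TPM, and the part of red cell RNA in the Epb41 value was not tested. In the same pool F3, the TPM of Sptan1, Sptbn1, Ank3, Epb41l2 and Epb41l3 was at its lowest, and the cause of this was not tested.

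Both genes carry a 63-base exon of 21 codons that belongs to the domain binding spectrin and actin, and in Epb41 this exon is known for being switched on as red cells mature. The exons are printed in capitals between 18 bases of the neighbouring exons, to show how closely these 2 genes match there. They are identical at 52 of 63 bases, or 82.5%. The Epb41 exon is chr4:131690235-131690297 on the minus strand and the Epb41l2 exon chr10:25369465-25369527 on the plus strand of GRCm39.
Epb41 63-base exon: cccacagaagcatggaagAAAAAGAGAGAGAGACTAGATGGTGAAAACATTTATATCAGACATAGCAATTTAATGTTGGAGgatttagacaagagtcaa
Epb41l2 63-base exon: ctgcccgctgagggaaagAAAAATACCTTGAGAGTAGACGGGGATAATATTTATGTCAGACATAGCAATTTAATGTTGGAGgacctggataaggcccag

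Inclusion of the Epb41 exon was 19.9, 14.9 and 29.5% of TPM in F1 to F3 and 17.9, 18.4 and 31.3% in M1 to M3. F3 and M3 were highest, the pools with the most and the least erythroid RNA. Inclusion of the Epb41l2 exon was 15.5, 13.8 and 16.4% in F1 to F3 and 17.04, 15.4 and 9.77% in M1 to M3, with M3 lowest. Both exons were absent from most of the TPM in every pool, and the leading Epb41-215, which skips it, held 60.3 ± 3.84% (SD, n = 6) of that gene. The transcripts that carry the exon differed by pool. Epb41-212 was listed at 0 and Epb41-216 at 3.49 TPM in M3, while in the other 5 pools Epb41-212 was at 1.54 to 4.765 TPM and Epb41-216 was listed at 0. A coding exon of Epb41l2 of 147 bases is held and skipped by the same transcripts as its 63-base exon. Its inclusion was therefore the same in every pool and cannot be told apart from that of the 63-base exon. A further coding exon of Epb41l2, of 123 bases, was included in 47.2 ± 2.13% of TPM.

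Epb41l3 encodes protein 4.1B, which holds axonal adhesion molecules at the paranode and beside it. It lies on chromosome 17 (GRCm39, 69382677 to 69598256, plus strand) and stood at 23.3, 21.2 and 16.8 TPM in F1 to F3 and at 24.0, 22.1 and 20.7 TPM in M1 to M3. Its leading transcript, Epb41l3-214, is annotated as a target of nonsense-mediated decay and held 40.5 ± 3.22% (SD, n = 6) of TPM, close to the 41.4% held by all its protein-coding transcripts together. In the other 7 genes the protein-coding share was 78.1 to 94.7%. The largest of the coding ones, Epb41l3-218, held 18.3 ± 4.21%, and a 123-base exon was included in 21.8 ± 2.23%.

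**Figure D3:**
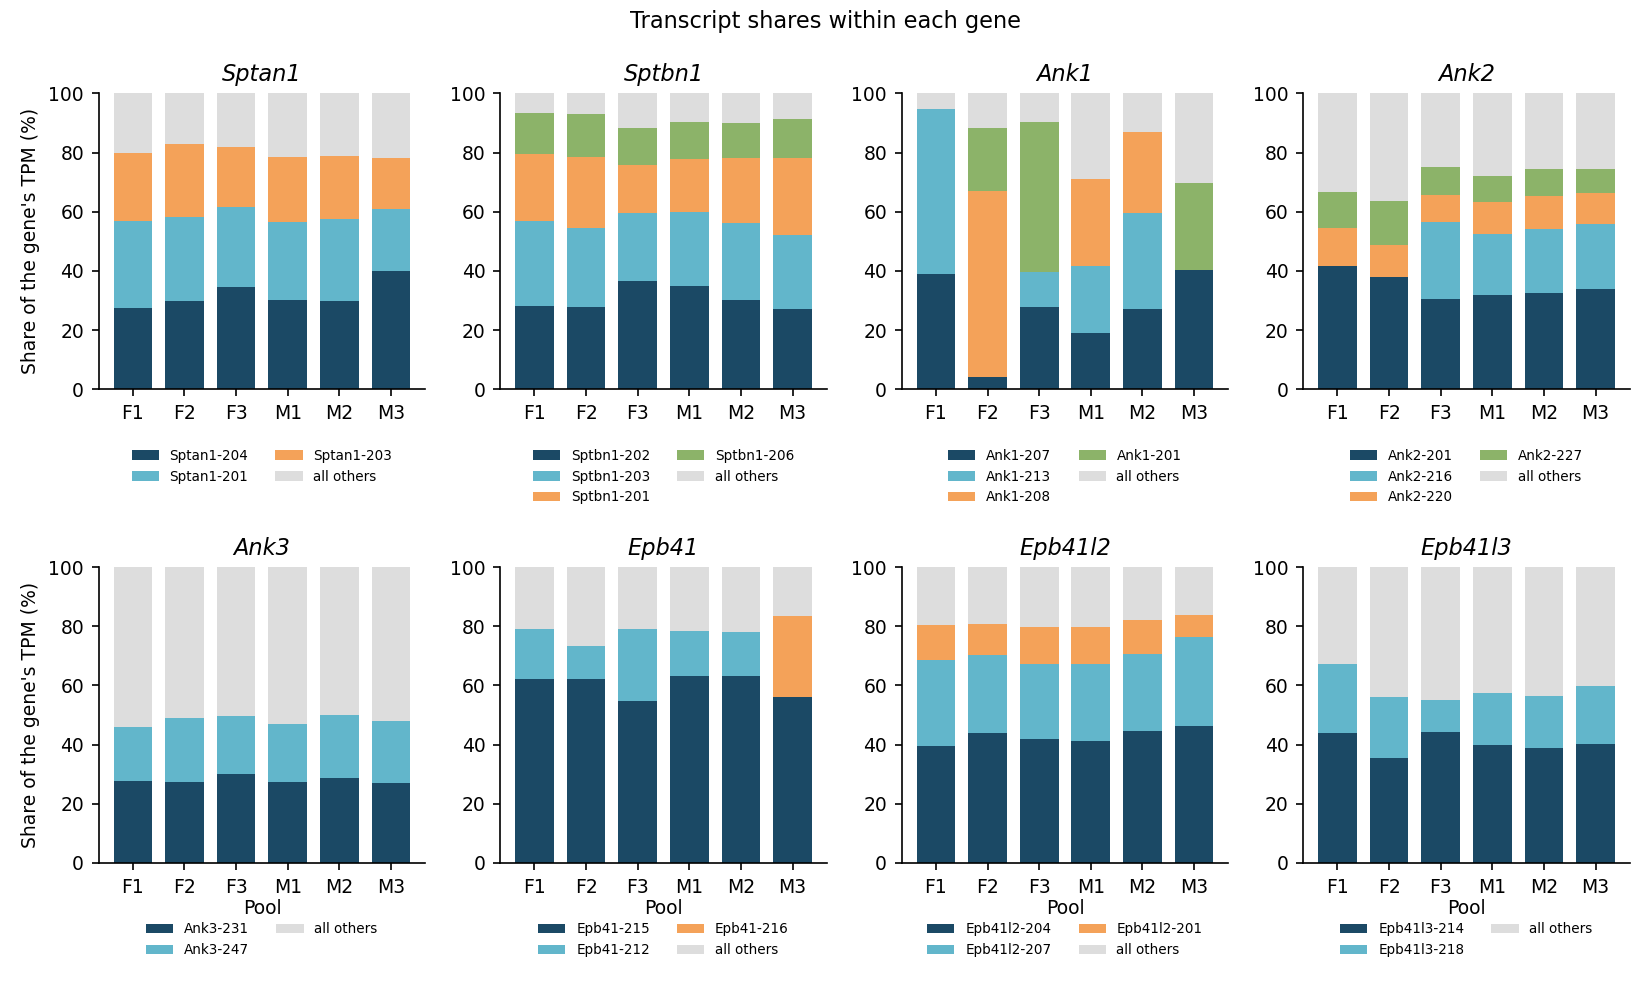
Share of each gene's TPM, in percent, held by its named transcripts (colours) and all others (light grey) in the 6 pools. Colours are stacked in the same order in every pool, by mean share. Those of Ank1 change in height from pool to pool, and Ank2-216 is missing from F1 and F2.

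**Figure D4:**
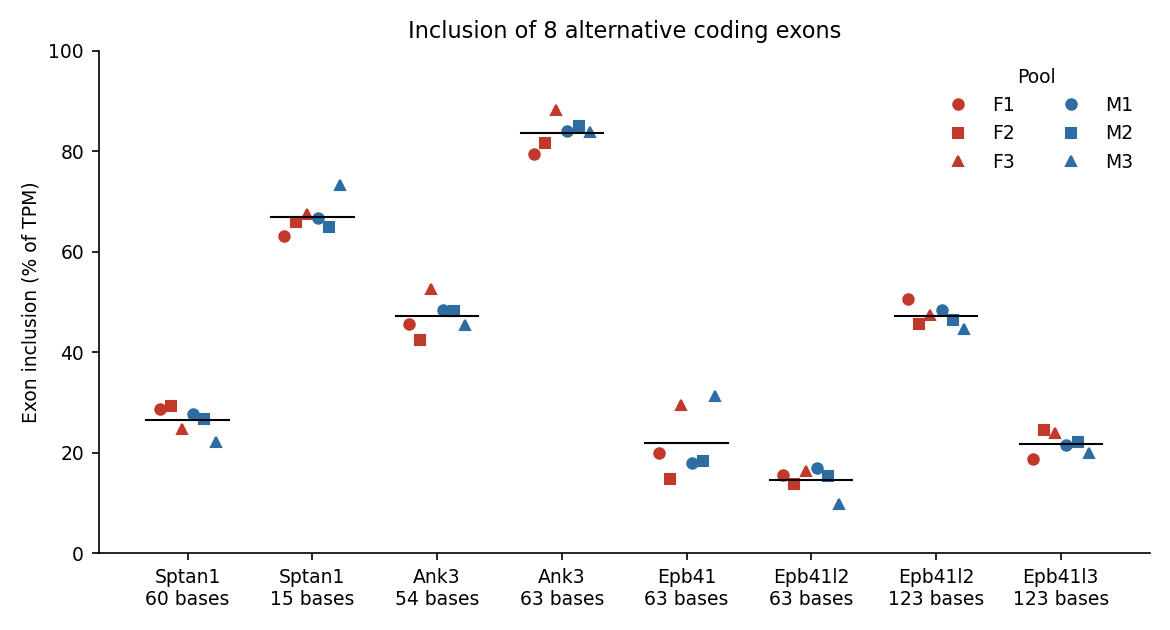
Inclusion of 8 alternative coding exons, in percent of the TPM of transcripts that span each exon, with females in red, males in blue and the mean over 6 pools as a black bar. Inclusion ranges from 14.7% on average for the Epb41l2 63-base exon to 83.7% for the Ank3 63-base exon, and the sexes overlap for each of these 8.

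The design asks whether the sexes differ in uninjured nerve, and none of the 8 genes was called higher or lower in female nerves. With the edgeR quasi-likelihood test over all 16310 genes, 0 of 8 passed an adjusted p of 0.1, against 0.0613% of all genes tested. None had an unadjusted p under 0.05, a level reached by 6.11% of all genes, and none passed with DESeq2 or with limma, which called 0.978% and 0.159% of genes. The ranges of the sexes overlapped for all 8 in normalised counts, whereas 11.2% of all genes did not overlap.

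Log2 fold changes, female over male, ran from -0.11 for Epb41l2 to 0.70 for Ank1, with a median of -0.0047 against 0.0016 over all genes. The difference for Ank1 was 0.70 ± 0.41 (SE), with edgeR adjusted p = 0.846 and a 95% interval from -0.26 to 1.67, and without F2 it was 0.05. For Epb41 it was 0.11 ± 0.16 (SE), with an interval from -0.28 to 0.50 and edgeR adjusted p = 0.932, and without F3 it was -0.09. Intervals of the other 6 genes lay between -0.29 and 0.26. These intervals are the bounds the data place on a sex difference, and a missed threshold does not show that the sexes are alike.

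**Figure D5:**
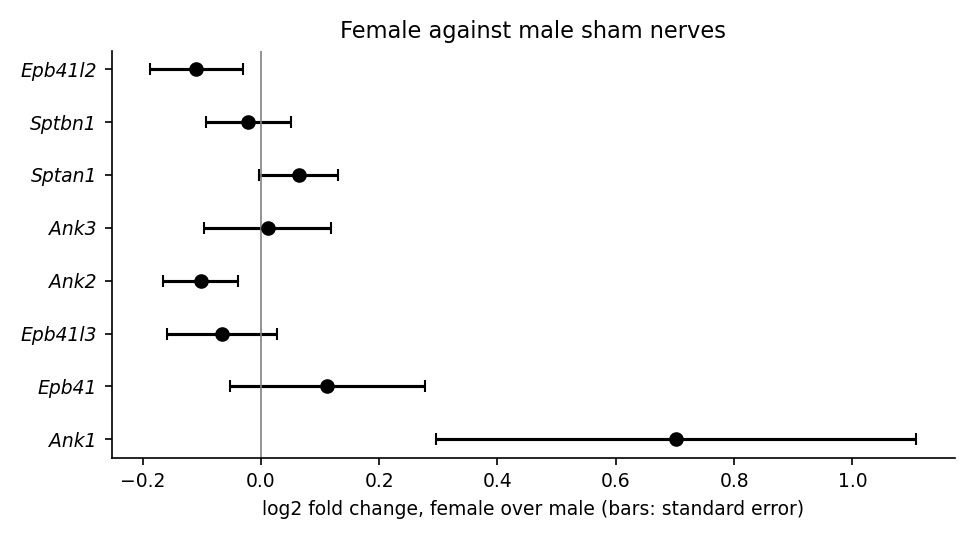
Log2 fold change of each gene, female over male, from the edgeR fit, with bars for the standard error. The 7 genes other than Ank1 lie between -0.11 and 0.11, and Ank1 lies at 0.70 with the widest bar.

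Of the 178 transcripts, 78 passed the filter on low counts, and none was called with edgeR, against 0.0289% of all 41480 transcripts tested. The sexes did not overlap for 7 of the 78, beside 10.1% of all transcripts. One, the noncoding Epb41l2-208, had an unadjusted p under 0.05, as did 4.19% of all transcripts, at 1.56, 1.01 and 0.783 TPM in F1 to F3 and 0.530, 0.162 and 0.403 TPM in M1 to M3, with a log2 fold change of 1.56 ± 0.48 (SE) and an edgeR adjusted p = 0.997. Without F3, Ank2-216 and Ank3-213 passed the edgeR test, with adjusted p = 0.006 and 0.0139. The other settings that gave them a value gave at least 0.962 and 0.955, and DESeq2 was among those that gave none. Ank3-213 was listed at 0 in F1 and F2 and at 3.68 to 4.29 TPM in the other 4 pools, as Ank2-216 was listed at 0 in the same pools. Without F1, Epb41l2-202 passed, with an edgeR adjusted p = 0.0553 against at least 0.868 in the other settings that gave it a value. It was listed at 0 in F2 and F3 and was at 0.316 TPM in F1 and 0.761, 0.941 and 0.967 TPM in M1 to M3.

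A test of transcript use, which asks whether the shares within a gene differ by sex, called none of the 8 genes, against 0.396% of 9604 genes. Unadjusted values were under 0.05 for Epb41l2 and Epb41l3, which is 2 of 8 beside 5.16% of all genes tested, and their edgeR adjusted p = 0.382 and 0.921. Without F1, Epb41l2 and Epb41l3 were called, with edgeR adjusted p = 1.1e-06 and 0.0021, and all other settings gave at least 0.296 and 0.143. Without F3, Ank2 was called, with edgeR adjusted p = 2e-16, against at least 0.898 in all other settings.

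The relatives of these genes had a lower median percentile by mean TPM, 48.4 against 82.4 for the 8 members, though the levels overlapped. Above the 50th percentile were 4 of the relatives and 6 of the members. Of 9 other spectrin and 4.1 genes, Sptb, the beta spectrin of red cells and muscle, was highest at 47.9 ± 3.43 TPM (SD, n = 6), followed by Epb41l4b at 46.8 ± 5.17 TPM. Sptbn4, the beta-IV chain of the node of Ranvier, was at 0.168 TPM (named after its values were seen). None of the 8 relatives tested was called with edgeR, and Epb41l5 had the lowest p, with a log2 fold change of 0.11 and an edgeR adjusted p = 0.864.

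On the actin side, 11 of 13 listed partners were tested and none was called with edgeR. Actb and Tpm3, the cytoplasmic beta actin and a tropomyosin, were highest at 3047 ± 319 and 376 ± 23.1 TPM (SD, n = 6). Actb was at 2874, 2780 and 2653 TPM in F1 to F3 and 3225, 3340 and 3414 TPM in M1 to M3. The sexes did not overlap for it, with a log2 fold change of -0.25 ± 0.08 (SE), edgeR adjusted p = 0.694 and DESeq2 adjusted p = 0.0946.

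Of 20 membrane proteins that bind ankyrin, 4.1 proteins or their complexes, 17 were tested and none was called with edgeR. Cadm4, the Schwann cell adhesion molecule that meets the axon, was highest at 572 ± 33.2 TPM (SD, n = 6). The lowest p belonged to Slc8a1, the sodium-calcium exchanger that ankyrin-B binds. It was at 5.87, 6.09 and 5.16 TPM in F1 to F3 and 7.57, 7.44 and 6.09 TPM in M1 to M3, with a log2 fold change of -0.39 ± 0.07 (SE). It had adjusted p = 0.29 with edgeR, 0.000779 with DESeq2 and 0.0611 with limma.

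The genes whose normalised counts followed each member most closely over the 6 pools were found by Pearson's r on the log2 scale, as a description of likeness in 6 libraries. Ank1 was most like Ankrd1, a muscle ankyrin repeat protein, and Casz1. Sptan1 was most like Zfp282 and Mlycd, Sptbn1 most like Adgrb2 and Sqle, Ank2 most like Btk and Ankub1, and Ank3 most like Cox5a and P2ry2. For Epb41 these were Slc1a3 and 1500002C15Rik, for Epb41l2 Slc35f1 and Dnajb3, and for Epb41l3 Ltbp1 and Col18a1. All 16 had r between 0.979 and 0.997, each the highest of 16310 genes over only 6 points.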

How the data were processed

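Stranded poly-A libraries of 6 pools were sequenced by the authors in paired-end mode. The authors quantified them with Salmon (versions in the submitters' processing notes: Trimmomatic 0.39, Salmon 1.5.2, MultiQC 1.9) against GENCODE mouse transcripts, and deposited per transcript an estimated count and a TPM value, with no replicate pooled further. Salmon divides reads among overlapping transcripts by likelihood, so shares of similar transcripts are uncertain. Counts were summed per gene and rounded. Genes and transcripts reaching 0.5 CPM in 3 or more pools were tested with edgeR 4.0.16 (TMM factors, quasi-likelihood, transcript use by diffSpliceDGE) in R 4.3.3, with Benjamini-Hochberg adjustment and a threshold of 0.1. DESeq2 1.42.0 and limma 3.58.1 were alternatives. On simulated counts the tests made more false calls than the threshold allows, most of all the transcript use test, so single calls of the last are uncertain. Exon inclusion is the TPM of transcripts holding an exon over that of all transcripts spanning it. Exon models came from GENCODE M39 on GRCm39, in which all 178 transcripts were found, 144 of them with the length used by the authors. The named genes were the 8 members, their transcripts with at least 10% of TPM on average or 25% in any pool or past the test, and of each wider list the 2 highest genes and the one with the lowest p; for each member the 2 most alike genes were named. One gene that this rule names is not reported here. Pools F1 to F3 and M1 to M3 come from different mice, so p-values measure spread between pools. No pools of a sex agreed within sampling noise. Depth was 55949876 to 78473057 read pairs. The members and lists were chosen with earlier results of these data known.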

Additional observations from a re-analysis of the deposited data

How the results depend on the processing

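None of the 8 genes was called by sex under any of 13 settings (other scaling, filters, tools, length offsets, a replicate block, each pool left out). Adjusted p ran from 0.39 to 1. Of 104 log2 fold changes under these settings, 93 kept their sign and 11 reversed. The reversed values were -0.0155 for Sptan1 with length offsets, 0.0270 without F3 and 0.0085 with limma for Sptbn1, and -0.0160 without F1, -0.0425 without F2, -0.0569 without M1, -0.0081 without M2 and -0.0360 with length offsets for Ank3. For Epb41 they were -0.0873 without F3 and -0.0459 with limma, and for Epb41l3 0.0245 without F3. With a pool left out, values ran from -0.0461 to 0.0270 for Sptbn1, -0.0569 to 0.117 for Ank3, -0.0873 to 0.224 for Epb41 and -0.158 to 0.0245 for Epb41l3. The cause was not tested. With 1 pool left out, 0 to 2 transcripts and 0 to 2 genes by transcript use were called. The settings with such calls were without F1, where 14 of all transcripts and 35 of all genes by use were called, and without F3, where 48 and 85 were, against 12 and 38 with all pools.

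The median percentile of the 8 genes was 92.0 by CPM, which does not divide by length, and 82.2 to 82.6 with a pool left out. By estimated reads in place of TPM, the leading share was 39.3% for Sptan1-204, 36.4% for Sptbn1-202, 41.0% for Ank1-207, 62.8% for Ank2-201, 47.8% for Ank3-231, 66.4% for Epb41-215, 46.3% for Epb41l2-204 and 49.04% for Epb41l3-214, since longer transcripts give more reads. Among protein-coding transcripts alone it was 39.7% for Sptan1-204, 39.5% for Sptbn1-202, 43.1% for Ank2-201, 29.6% for Ank3-231, 65.0% for Epb41-215 and 49.1% for Epb41l2-204.

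Over all genes, calls went from 10 to between 3 and 49 under other edgeR settings, 26 with limma and 159 with DESeq2. Over all transcripts they went from 12 to between 0 and 48 (DESeq2 207), and for transcript use from 38 to between 8 and 98. Replicate numbers did not pair the pools: same-numbered pools had correlations of -0.18, -0.16 and -0.15 in their deviations. The replicate block called 0 of the 8 genes, 0 of their transcripts and 0 by transcript use, and 5 of all genes. Ank1, at 145 to 440 estimated reads per pool, is the gene whose values depth limits most.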
